A study of Mus musculus with 6 samples.

Results

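Replication-dependent histone genes encode the H1, H2A, H2B, H3 and H4 proteins that package newly copied DNA. They were taken as the RefSeq genes whose symbols begin H1f (numbers 1 to 6), H2ac, H2bc, H3c or H4c, each followed by a number. The rule found 64 of 49997 annotated genes. There were 6 H1f, 18 H2ac, 16 H2bc, 12 H3c and 12 H4c genes, and the annotation lists 1 of them, H2ac14, as a pseudogene. Baits are the promoter fragments that the capture probes enrich, and 36 of 19083 baits lay within 2 kb of such a gene. All 64 genes had a bait. A bait is named here by the histone genes on it, since neighbouring histone genes often share one.

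The contacts came from promoter-capture Micro-C of wild-type E14 mouse embryonic stem cells, a line derived from a male embryo and grown with serum and leukaemia inhibitory factor. Cells were harvested 48 h after transfection with esiRNA, short RNAs cut from a long double strand by an endoribonuclease. The esiRNA was directed against EGFP (Control), against Smarca4, which encodes Brg1 (Brg1KD), or against Ino80 (Ino80KD). Brg1 is the ATPase of the esBAF remodelling complex and Ino80 that of the INO80 complex. Each group had 2 libraries, and nothing in the labels says that they came from separate cultures, so their spread may be technical. By the labels, the first library of all 3 groups belonged to batch 1. Control replicate 2 was alone in batch 2, and the other Brg1KD and Ino80KD libraries made up batch 3. RNA was not measured in these libraries, and the extent of either depletion was not checked here. A loop is a bait and another end, baited or not, that the authors listed with an interaction score of at least 5. Control lists held 15322 and 14394 intrachromosomal loops, Brg1KD lists 12254 and 12962, and Ino80KD lists 14675 and 14113.

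These genes are transcribed as cells enter and pass through S phase, and their mRNAs end in a stem-loop in place of a poly(A) tail. Their clusters gather at the histone locus body, a nuclear compartment that holds NPAT, the coactivator phosphorylated by cyclin E and Cdk2, and the machinery that cuts the mRNA 3′ end. The large mouse cluster on chromosome 13 is split by a stretch of unrelated genes, and a smaller cluster lies on chromosome 3.

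On mm10, the proximal subcluster of chromosome 13 ran from 21715711 to 22043658 and held 23 genes on 12 baits. Its genes lay in a long run from H2bc13 to H2ac24 and, 202 kb further on, a short run from H2ac12 to H2bc11. The distal subcluster ran from 23531044 to 23934913 and held 31 genes on 19 baits. Its runs were H4c8 to H1f4, H2ac6 to H1f1, and the pair H2bc1 and H2ac1, the testis forms of H2B and H2A. The stretch of 1.49 Mb between the subclusters holds 147 annotated genes, of which 35 are Vmn1r pheromone receptor genes and 46 are tRNA genes. A further 31 tRNA genes lie inside the proximal subcluster. The chromosome 3 cluster, from 96219885 to 96270192, held 10 genes on 5 baits and none for H1.

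The promoters of the genes at the busiest baits show what the histone baits capture. RefSeq promoter sequences of 300 bases (250 before and 50 after the gene start, GRCm38.p6, the same primary chromosomes as mm10) were found for 58 of the 64 genes. Letters in capitals mark exact matches, on either strand, to the octamer ATTTGCAT that Oct1, the product of Pou2f1, binds, to CCAAT, to TATAAA and to AAACACA, the H1 box. The first pair comes from the bait with the most loops (H2ac10 at chr13:23533625-23533924 and H3c8 at chr13:23535168-23535467, both plus strand). The next pair comes from the 2 busiest baits of the proximal subcluster (H2bc12 at chr13:22035571-22035870, plus strand, and H4c9 at chr13:22041313-22041612, minus strand). The last is from the bait with the most loops on chromosome 3 (H2ac20 at chr3:96220831-96221130, minus strand).
H2ac10: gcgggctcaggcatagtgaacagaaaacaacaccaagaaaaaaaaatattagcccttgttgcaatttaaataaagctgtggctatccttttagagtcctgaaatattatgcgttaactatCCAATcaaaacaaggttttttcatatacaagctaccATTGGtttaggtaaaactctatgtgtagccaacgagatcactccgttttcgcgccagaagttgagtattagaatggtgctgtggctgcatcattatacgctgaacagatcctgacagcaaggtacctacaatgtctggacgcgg
H3c8: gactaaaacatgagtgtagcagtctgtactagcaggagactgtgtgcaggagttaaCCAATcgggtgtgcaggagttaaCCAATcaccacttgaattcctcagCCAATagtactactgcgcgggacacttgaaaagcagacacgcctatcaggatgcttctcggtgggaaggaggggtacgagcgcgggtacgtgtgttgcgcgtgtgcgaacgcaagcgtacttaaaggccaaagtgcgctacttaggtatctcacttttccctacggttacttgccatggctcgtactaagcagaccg
H2bc12: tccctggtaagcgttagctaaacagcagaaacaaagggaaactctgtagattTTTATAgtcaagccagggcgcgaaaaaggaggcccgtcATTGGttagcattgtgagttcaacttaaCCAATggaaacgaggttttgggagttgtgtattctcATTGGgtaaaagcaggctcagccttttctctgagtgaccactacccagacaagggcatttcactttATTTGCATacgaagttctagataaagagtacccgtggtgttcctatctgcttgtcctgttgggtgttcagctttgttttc
H4c9: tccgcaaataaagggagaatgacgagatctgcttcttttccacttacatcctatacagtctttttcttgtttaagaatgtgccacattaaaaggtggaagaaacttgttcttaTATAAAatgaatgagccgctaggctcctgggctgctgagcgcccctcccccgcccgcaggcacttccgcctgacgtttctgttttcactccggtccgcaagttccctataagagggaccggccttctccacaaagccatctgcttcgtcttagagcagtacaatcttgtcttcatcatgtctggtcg
H2ac20: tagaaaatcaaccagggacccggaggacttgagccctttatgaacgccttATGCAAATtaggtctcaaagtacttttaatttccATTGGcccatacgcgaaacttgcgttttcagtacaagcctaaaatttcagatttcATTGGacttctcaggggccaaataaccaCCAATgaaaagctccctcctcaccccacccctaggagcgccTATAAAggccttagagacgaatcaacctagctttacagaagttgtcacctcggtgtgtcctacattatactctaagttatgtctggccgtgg

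The families differed in these letters. CCAAT was in the promoters of all 6 H1f, 17 H2ac, 14 H2bc and 10 H3c genes with a sequence, but in 3 of 11 H4c promoters, and in 37.8% of 27025 promoters of all genes. H3c8 carries it 3 times and H4c9 not at all. The octamer was in 6 of 17 H2ac and 7 of 14 H2bc promoters, in no H1f, H3c or H4c promoter, and in 1.74% of all promoters. The H1 box was in 5 of 6 H1f promoters, in 2 H2ac and 2 H2bc promoters and in no H3c or H4c promoter, against 7.25% of all. TATAAA was in 34 of 58 histone promoters and 14.1% of all. In 9 pairs an H2ac and an H2bc gene lay head to head with overlapping promoter windows, so that their matches are the same bases read from either strand. H2ac12 and H2bc12, which share a bait, overlapped by 277 bases. A match is only a run of letters. No binding of a factor was measured.

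Histone baits had many loops. Across the 36 baits the mean was 1.81 to 6.81 loops per bait in a library, against 0.659 to 0.838 over all baits. Summed over the 6 libraries, every histone bait had at least 1 loop, and the median was 19 loops against 2 for all baits. Wider baits had more loops (Spearman rho 0.508 over the 36 baits, a description without a test, since the baits share libraries and overlap the same contacts). Most histone loops were long. Between 56.7% and 71.7% spanned 1 to 3 Mb in a library, against 3.20% to 6.77% of all intrachromosomal loops. Of 424 distinct loops with a histone bait, 238 (56.1%) were listed in 1 library and 9 (2.12%) in all 6, against 68.0% and 3.15% of all distinct intrachromosomal loops.

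The loops with a histone bait at either end numbered 166 and 108 for Control, 60 and 81 for Brg1KD, and 169 and 195 for Ino80KD. Per 1000 intrachromosomal loops of the same library this was 10.8 (95% Wilson interval 9.31 to 12.6) and 7.50 (6.22 to 9.05) in Control, 4.90 (3.81 to 6.30) and 6.25 (5.03 to 7.76) in Brg1KD, and 11.5 (9.91 to 13.4) and 13.8 (12.02 to 15.9) in Ino80KD. The intervals cover counting error only. Each Brg1KD library lay below and each Ino80KD library above both Control libraries. The Brg1KD mean of 5.57 ± 0.956 (SD, n = 2) was 0.608 times the Control mean of 9.17 ± 2.36, and the Ino80KD mean of 12.7 ± 1.63 was 1.38 times it. Each of these exact two-sided permutation tests gave p = 0.33, the smallest value that 2 libraries against 2 can give, so neither could pass a threshold of 0.05. Within batch 1 the Brg1KD library was at 0.452 times and the Ino80KD library at 1.06 times the Control library. Both depletions are set against the same Control libraries. Between the depletions, which share batches 1 and 3, Ino80KD was at 2.27 times Brg1KD (exact permutation p = 0.33), with 2.35 within batch 1 and 2.21 within batch 3. Among loops with an interaction score of at least 7, each depletion overlapped Control (ratios 0.614 and 1.51, exact permutation p = 0.67 for each).

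**Figure D1:**
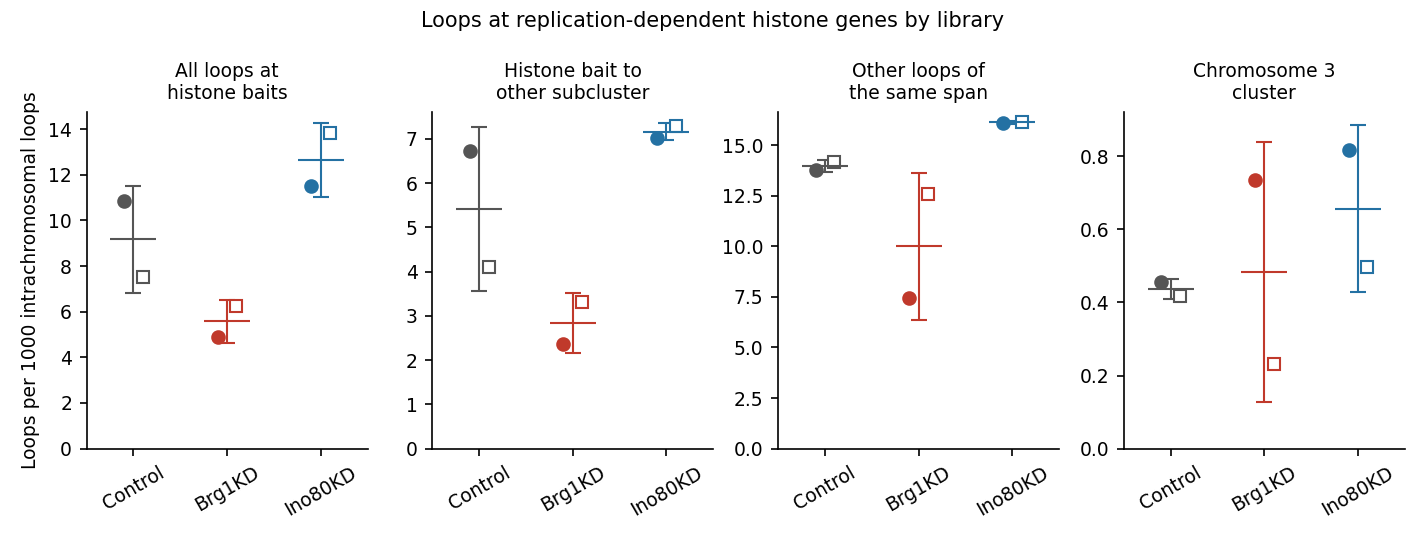
Loops per 1000 intrachromosomal loops (vertical axes, each from 0) in the 3 groups (horizontal axes), with filled circles for replicate 1, open squares for replicate 2, and a line and bars for the mean and SD of 2 libraries. At histone baits and between subclusters both Brg1KD libraries lie below and both Ino80KD libraries above Control; other loops of the same span have the same order, and on chromosome 3 the Brg1KD libraries lie on either side of Control.

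The largest class of histone loops joined the subclusters of chromosome 13. Loops from a histone bait into the span of the other subcluster, 1.49 to 2.22 Mb away, numbered 103 and 59 for Control, 29 and 43 for Brg1KD, and 103 for each Ino80KD library. They made up 62.0% and 54.6% of histone loops in Control, 48.3% and 53.1% in Brg1KD, and 60.9% and 52.8% in Ino80KD. Per 1000 intrachromosomal loops they came to 6.72 and 4.10 in Control, 2.37 and 3.32 in Brg1KD, and 7.02 and 7.30 in Ino80KD. The groups did not overlap. The Brg1KD mean was 0.525 times and the Ino80KD mean 1.32 times the Control mean, and Ino80KD was at 2.52 times Brg1KD (exact permutation p = 0.33 for each). In batch 1 alone the ratios to Control were 0.352 for Brg1KD and 1.04 for Ino80KD, so that the Ino80KD library and its Control from the same batch were close. In a library, 44.8% to 61.2% of the loops into the other subcluster had no histone gene at the other end. For unbaited other ends without a histone gene, each depletion stood apart from Control (ratios 0.443 for Brg1KD and 1.31 for Ino80KD). For unbaited other ends with a histone gene, both overlapped Control (0.836 and 1.07). Both also overlapped it with histone baits at both ends, as given below.

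**Figure D2:**
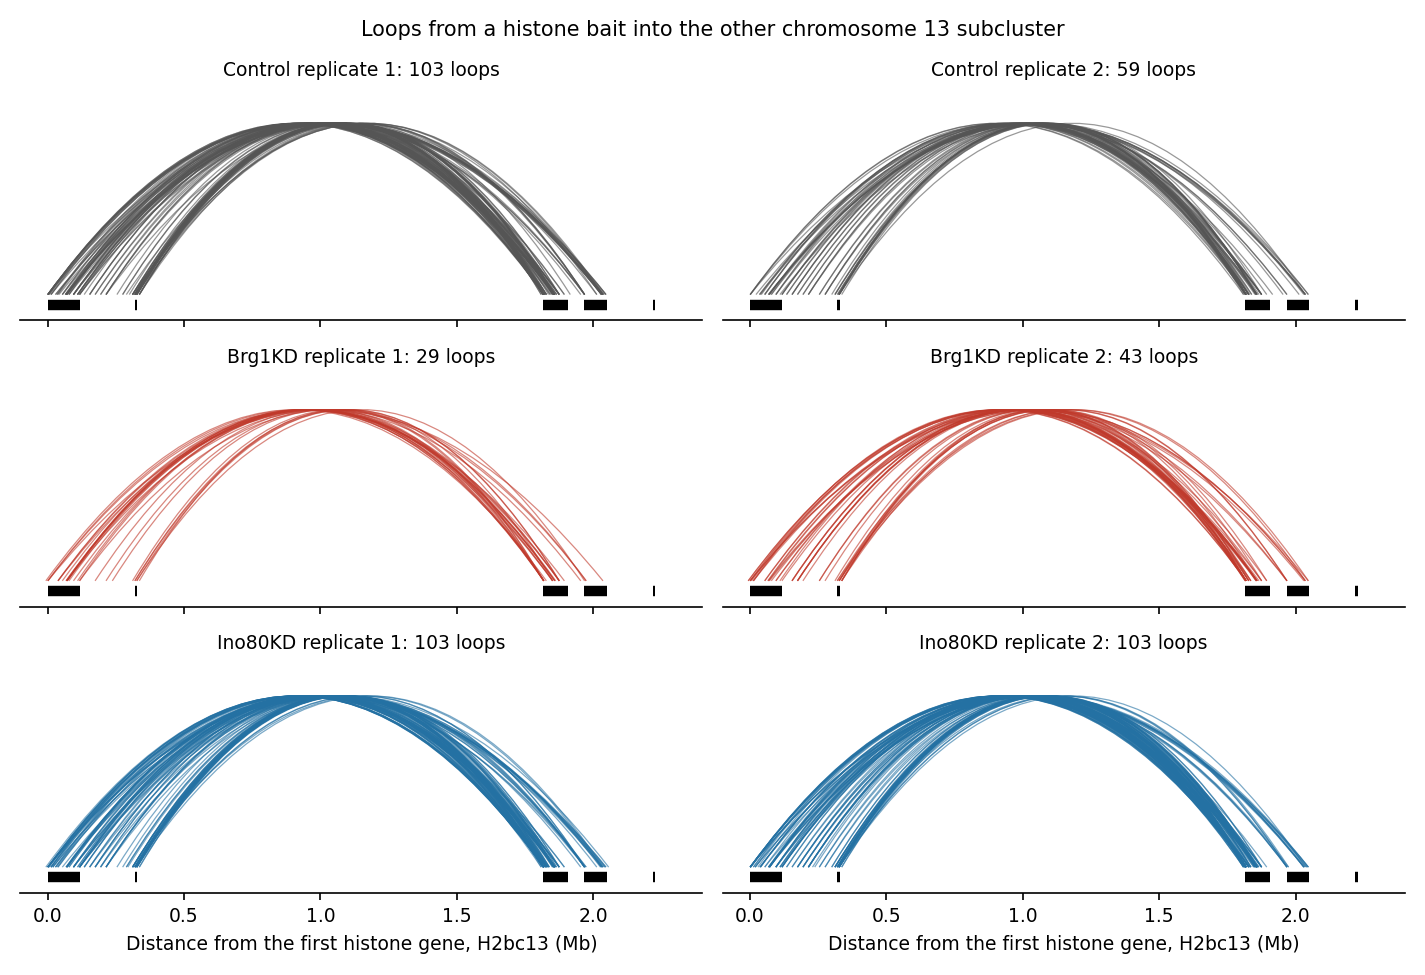
Each arc is 1 loop from a histone bait into the other subcluster, with 1 panel per library, and black bars mark the runs of histone genes along the distance from H2bc13 in Mb (the height of an arc has no scale). Control replicate 1 and both Ino80KD libraries have 103 loops each, Control replicate 2 has 59, and the Brg1KD libraries have 29 and 43; none ends at the last short bar, H2bc1 and H2ac1.

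Loops of this length were fewer after Brg1 depletion elsewhere too. Loops of the same span that were not between the subclusters came to 13.8 and 14.2 per 1000 in Control, 7.43 and 12.6 in Brg1KD, and 16.1 in one Ino80KD library and 16.2 in the other. The Brg1KD mean was 0.716 times and the Ino80KD mean 1.15 times Control (exact permutation p = 0.33 for each). On chromosome 13 alone these other loops numbered 28 and 22 in Control, 8 and 16 in Brg1KD, and 31 and 35 in Ino80KD. Per 1000 loops the ratios to Control there were 0.562 for Brg1KD and 1.37 for Ino80KD (exact permutation p = 0.33 for each). Between the subclusters they were 0.525 and 1.32. To set the histone loops against such loops, their number was divided by the number of all listed loops of that span on any chromosome. It came to 33.0 and 22.5 per 100 in Control, 24.4 and 21.0 in Brg1KD, and 30.5 and 31.3 in Ino80KD. The Brg1KD and Control libraries overlapped on this scale (difference −5.09 per 100, exact permutation p = 0.67), as did Ino80KD and Control (3.12 per 100, p = 1). The Brg1KD to Control ratio on this scale was 0.687 without Control replicate 2 and 1.01 without Control replicate 1. Nearly all loops between the subclusters are themselves part of this denominator, and the few others fall outside its span limits. Ino80KD and Brg1KD did not overlap (difference 8.22 per 100, exact permutation p = 0.33), but with other ends within 5 kb of each other merged they did (ratio 1.09, p = 1, against 1.36 unmerged).

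Contacts between the subclusters were not evenly spread over their runs of genes. Summed over the 6 libraries, 152 loops joined the H2bc13 to H2ac24 run with the H4c8 to H1f4 run. A further 99 joined the short H2ac12 to H2bc11 run, with its 2 baits, to H4c8 to H1f4. The H2ac6 to H1f1 run had 67 loops with H2bc13 to H2ac24 and 20 with H2ac12 to H2bc11. The testis pair H2bc1 and H2ac1 had none. Histone baits of the H4c8 to H1f4 run also had 92 loops into the part of the proximal subcluster that holds no histone gene. Counts for H2bc13 to H2ac24 with H4c8 to H1f4 were 34 and 16 in Control, 16 and 15 in Brg1KD, and 35 and 36 in Ino80KD. Counts for H2ac12 to H2bc11 with H4c8 to H1f4 were 27 and 13 in Control, 5 and 7 in Brg1KD, and 24 and 23 in Ino80KD. By number, in both of these joins each Brg1KD library was at or below the lower Control library, replicate 2. The Brg1KD lists were shorter, with 12254 and 12962 intrachromosomal loops against 14394 in Control replicate 2. Relative to list length, both Brg1KD libraries lay above Control replicate 2 for H2bc13 to H2ac24 with H4c8 to H1f4. For H2ac12 to H2bc11 with H4c8 to H1f4 both stayed below it.

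Baits of other genes inside the subclusters had few such contacts. The 3 in the proximal subcluster were those of the zinc finger gene Zfp184, the serine protease gene Prss16 and Pom121l2. They had 59, 47 and 43 loops in all, counted at either end. With them as the baited end, 3, 1 and 0 loops reached the distal subcluster. The 8 in the distal subcluster belong to the iron-uptake regulator Hfe, the transporter genes Slc17a1 to Slc17a4 and Trim38. As the baited end, 1 bait of Hfe had 1 loop into the proximal subcluster and the others had none. Loops joining a histone bait to a bait of another gene in the other subcluster, with either as the baited end, numbered 1 in each Ino80KD library. Control and Brg1KD had 0. The histone bait H2bc9/H3c7, with 51 loops in all, had 36 into the other subcluster, counted at either end. Not every histone bait of chromosome 13 had such loops. H2bc6/H1f4, with 15 loops in all, had none, nor did the baits H1f6, H4c3, H1f2 and H2bc1/H2ac1, which had few loops. The copies of these genes are closely alike, and the sources used here do not give how reads matching several copies were treated.

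With histone baits at both ends, loops between the subclusters numbered 31 and 11 in Control, 5 and 13 in Brg1KD, and 25 and 34 in Ino80KD. Here Brg1KD replicate 2 lay above Control replicate 2 per 1000 loops (1.00 against 0.764), and Ino80KD replicate 1 below Control replicate 1 (1.70 against 2.02), so the groups overlapped. The ratios of means were 0.506 for Brg1KD and 1.48 for Ino80KD against Control (exact permutation p = 0.67 for each), and within batch 1 Ino80KD was at 0.842 times Control, the other direction. Ino80KD lay above Brg1KD in both replicates, at 2.91 times its mean (exact permutation p = 0.33). Single libraries weighed heavily: without Control replicate 1 the ratios to Control were 0.923 for Brg1KD and 2.69 for Ino80KD, and without Brg1KD replicate 2 Ino80KD was at 5.04 times Brg1KD. The Brg1KD to Control ratio was 0.293 without Brg1KD replicate 2. The lists named 66 of the 228 possible pairs of baits, 31 of them in 1 library, 36 in at least 1 Control library, 16 in Brg1KD and 46 in Ino80KD.

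The rule for naming pairs took those listed in at least 4 libraries, and there were 4. H2bc13/H2ac13/H3c10 with H2ac10/H3c8, 1.82 Mb apart, was listed in all libraries but Brg1KD replicate 1. H2bc13/H2ac13/H3c10 with H2ac4/H3c2, 2.03 Mb apart, was listed in all but Brg1KD replicate 2. H4c9/H2ac11/H2bc11 with H2ac10/H3c8 was listed in both Control and both Ino80KD libraries and in neither Brg1KD library. H4c9/H2ac11/H2bc11 with H2ac6/H2bc4 was listed in Control replicate 1, both Brg1KD libraries and Ino80KD replicate 2. Each of these baits carries genes of at least 2 of the families H2A, H2B, H3 and H4. Many other histone baits of chromosome 13 do so too, such as H2bc9/H3c7 and H2bc23/H2ac23/H4c17, so this does not set the pairs apart.

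Many histone loops ended in regions that hold tRNA genes. The loops counted had a histone bait of chromosome 13 as the baited end and no histone gene at the other. In Control, 57 of 92 and 37 of 64 held a tRNA gene in the other end. The numbers were 19 of 30 and 34 of 52 in Brg1KD, and 53 of 97 and 73 of 113 in Ino80KD. An unbaited end is a bin of up to 20 kb, so the contact need not be with the tRNA gene itself. That is 54.6% to 65.4% in a library. For the loops of all other baits of chromosome 13 the range was 12.5% to 19.2%, and for all other baits of the genome 0.713% to 1.13%. These chromosomal values are a description, since tRNA genes are dense around the histone clusters. The end that histone baits met most often was chr13:23400001-23420000, which holds 5 tRNA genes and overlaps Abt1, a gene for a basal transcription activator. It lies in the stretch between the subclusters and was met by 8 proximal and 8 distal baits, with 10 and 6 loops in Control, 7 in each Brg1KD library, and 5 and 8 in Ino80KD. In this end the Brg1KD libraries lay within the Control range. Another end with tRNA genes, chr13:21920001-21940000 with 7 of them, had 5 and 4 loops in Control, 1 and 0 in Brg1KD, and 6 and 8 in Ino80KD.

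Within a subcluster, loops were fewer. In the distal subcluster they numbered 16 and 12 in Control, 4 and 8 in Brg1KD, and 20 in each Ino80KD library. In the proximal subcluster they numbered 11 and 8 in Control, 5 and 6 in Brg1KD, and 13 and 18 in Ino80KD. In both, per 1000 loops, the Brg1KD libraries lay below and the Ino80KD libraries above Control. From the proximal baits into the stretch between the subclusters there were 15 and 9 loops in Control, 5 and 7 in Brg1KD, and 11 and 17 in Ino80KD. The 36 other baits in that stretch had 4.96 and 5.91 loops per 1000 in Control, 3.92 and 4.78 in Brg1KD, and 6.41 and 6.02 in Ino80KD, the same order of groups, with ratios to Control of 0.801 for Brg1KD and 1.14 for Ino80KD. The 8 baits of other genes in the distal subcluster had the opposite order without overlap, with ratios of 1.34 and 0.685. For the 3 in the proximal subcluster the ratios were 0.813 and 1.25, and Ino80KD overlapped Control.

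Single baits varied widely. H2ac10/H3c8, at the near edge of the distal subcluster, had the most loops, with 25 and 15 in Control, 13 and 14 in Brg1KD, and 25 and 35 in Ino80KD, and 88 of its 127 loops went to the other subcluster. H4c9/H2ac11/H2bc11, at the far edge of the proximal subcluster, had 18 and 15 in Control, 4 and 8 in Brg1KD, and 15 and 21 in Ino80KD. Its Brg1KD libraries lay below both Control libraries. H2ac12/H2bc12, the neighbouring divergent pair, had 20 and 6 in Control, 6 and 9 in Brg1KD, and 18 and 23 in Ino80KD, so that its Brg1KD and Control libraries overlapped.

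H2bc13/H2ac13/H3c10 opens the proximal subcluster and had 13 and 6 loops in Control, 4 and 5 in Brg1KD, and 11 and 17 in Ino80KD. H2bc7/H2ac7/H3c4 had 9 and 5 in Control, 3 and 6 in Brg1KD, and 12 and 20 in Ino80KD. H2ac8/H2bc8 had 17 and 5 in Control, 1 and 3 in Brg1KD, and 8 and 7 in Ino80KD. H2bc13/H2ac13/H3c10 and H2ac8/H2bc8 had fewer loops in both Brg1KD libraries than in both Control libraries, whereas for H2bc7/H2ac7/H3c4 the groups overlapped. H2bc9/H3c7 had 10 and 9 loops in Control, 2 and 6 in Brg1KD, and 13 and 11 in Ino80KD. H2bc23/H2ac23/H4c17 had 9 and 4 in Control, 3 and 2 in Brg1KD, and 9 and 12 in Ino80KD. H4c18/H2ac24 had 7 and 6 in Control, 2 in each Brg1KD library, and 12 and 8 in Ino80KD. H4c8, a single H4 gene, had 6 in each Control library, 1 and 4 in Brg1KD, and 5 and 14 in Ino80KD. These last 4 were lower in both Brg1KD libraries than in both Control libraries.

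Per 1000 loops, Brg1KD stood under Control in all library pairs at 12 of the 36 histone baits, where 7.78% of all baits with a loop did so, and above at none, where 11.7% did so. The distal subcluster had 7 of these baits, the proximal 5 and chromosome 3 none. Both Ino80KD libraries lay above both Control libraries at 12 baits (10.3% of all baits) and below at 1 (7.13%). They lay above both Brg1KD libraries at 20 (7.81%) and below at 1 (12%). A bait with few loops can hardly separate groups, so the order was also counted by loop number over the baits with at least 20 loops in all, 18 histone baits of 581. There Brg1KD lay below Control at 10 of 18 (18.9% of the 581) and above at none (6.88%). Ino80KD lay above Control at 3 of 18 (13.3%) and above Brg1KD at 14 of 18 (21.9%), and below either at none (13.8% and 7.4%). At 3 of 18 the count for Ino80KD over Control was close to the background. Histone baits share loops with each other, so these baits are not independent.

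**Figure D3:**
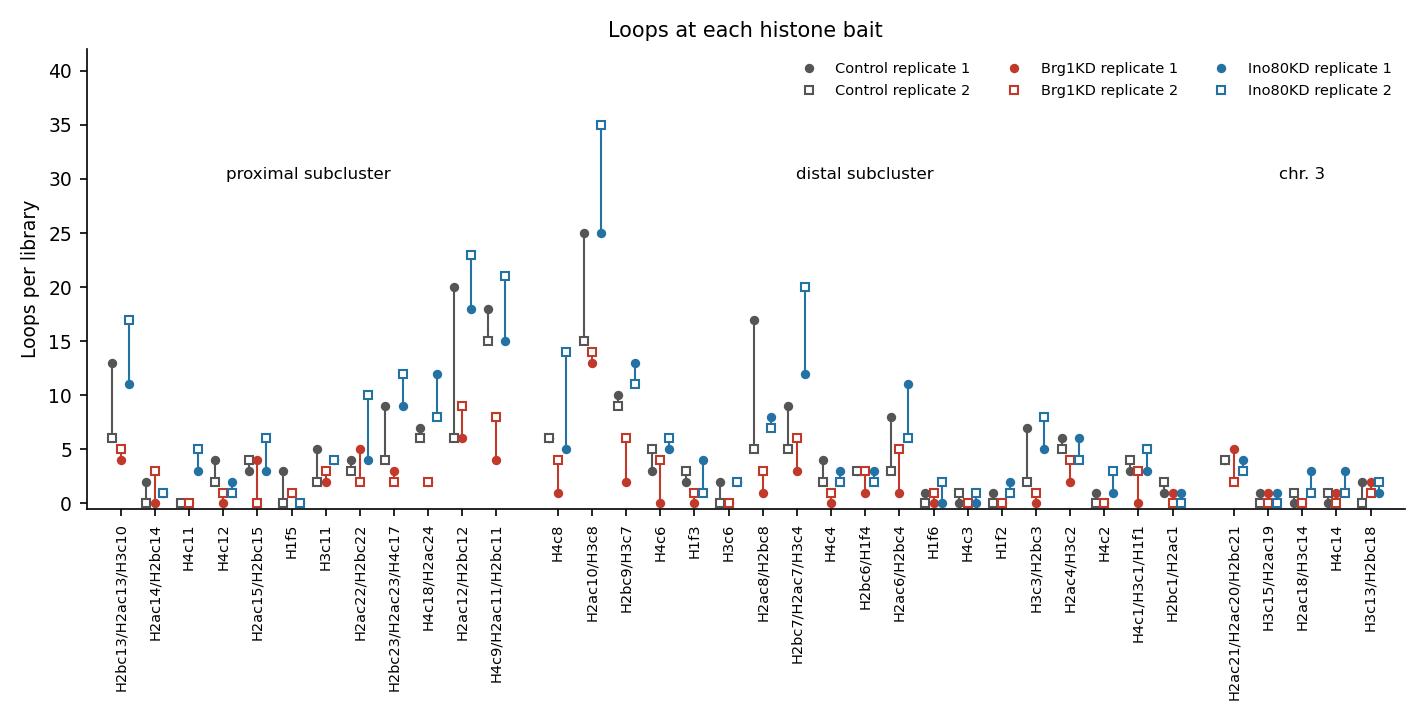
Number of loops in each library (vertical axis) at each of the 36 histone baits, in genome order within each cluster, with filled circles for replicate 1, open squares for replicate 2 and a line joining the 2 libraries of a group. H2ac10/H3c8 is highest, with 35 loops in Ino80KD replicate 2, and the baits of H1f2, H1f6, H4c2, H4c3 and chromosome 3 have few.

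The authors' deposited tables give contact changes on a log2 scale for rows that join a bait and a region, each against Control. No header states their direction. Loops listed only in both Brg1KD libraries were above 0 in 83.6% of cases, and those only in both Ino80KD libraries in 86.5%, so values above 0 are read as higher after depletion. In the authors' deposited table for Brg1KD, 195 rows had a histone bait, with a median log2 fold change of −0.33, against −0.01 over all 33243 rows. Of these, 154 were below 0, or 79.0%, where 51.3% of all rows were. In the authors' deposited table for Ino80KD, 316 rows had a histone bait, with a median of 0.22, and 249 were above 0, or 78.8%, where 50.4% of all rows were. Rows of a bait overlap and both tables use the same Control libraries, so no test over rows was made. Loops listed only in both Control libraries were above 0 in 17.0% of cases for Brg1KD and 15.3% for Ino80KD. The sign of a row thus tended to follow the group that listed its loop. How loops gave rise to rows was not tested, so these signs may repeat the loop counts and are no separate check on them. The same limit holds for the values by kind of contact and by bait below. The median deposited standard error, 0.57 for Brg1KD and 0.51 for Ino80KD, was larger than either median change.

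Few single rows stood out. No row of either of the authors' deposited tables had an adjusted p under 0.05. At an unadjusted p under 0.05, the Brg1KD table had 4 histone rows that were lower (0.827% of all rows were) and none that was higher (0.373%). The Ino80KD table had 1 that was higher (0.912%) and none that was lower (0.382%). The smallest p in the Brg1KD table was at H2ac6/H2bc4 with a region inside the distal subcluster (log2 fold change −0.69 ± 0.30, SE, authors' deposited table). Its p as deposited was 0.0209 before and 1.00 after adjustment. H4c4 with a neighbouring region was at −0.55 ± 0.24, and H2bc1/H2ac1 with regions outside the subcluster at −0.57 ± 0.27 and −0.53 ± 0.26, in the same authors' deposited table. The fifth row, H2ac6/H2bc4 with another region that overlaps the first, was at −0.47 ± 0.24. In the authors' deposited table for Ino80KD the smallest p was at H2ac6/H2bc4 with the proximal subcluster (1.52 ± 0.69, unadjusted p = 0.0273, adjusted p = 1.00). The next rows were H2ac6/H2bc4 with another proximal region at 1.09 ± 0.58, H4c14 with a region beyond the chromosome 3 cluster at 0.62 ± 0.33, H2ac10/H3c8 at 0.82 ± 0.49 and H3c3/H2bc3 at 1.10 ± 0.68, the last 2 with the proximal subcluster. None of these differences survived the authors' adjustment.

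By kind of contact, the authors' deposited table for Brg1KD had 105 rows between the subclusters, with a median of −0.37 and 84 below 0. For Ino80KD the authors' deposited table had 172, with a median of 0.30 and 142 above 0. Rows of the same span without a histone bait had medians of −0.17 over 223 rows and 0.12 over 339 rows in those tables. Of these rows, 65.0% were below 0 for Brg1KD and 60.2% above 0 for Ino80KD. Between the subclusters the shares were 80% and 82.6%. Rows within the proximal subcluster had medians of −0.38 over 19 rows and 0.19 over 29 rows, and those within the distal subcluster −0.35 over 23 rows and 0.13 over 45 rows. The deposited values thus had the same sign inside a subcluster as between subclusters.

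The rows of each bait were averaged with the inverse of their squared errors as weights, from the authors' deposited tables. For Brg1KD, 27 of 32 histone baits were below 0 (52.2% of all baits were), with a median of −0.30. For Ino80KD, 27 of 35 were above 0 (48.5% of all baits were), with a median of 0.16. H2ac8/H2bc8 was at −0.54 ± 0.14 (SE) for Brg1KD and −0.12 ± 0.12 for Ino80KD in the authors' deposited tables. H4c9/H2ac11/H2bc11 was at −0.49 ± 0.13 and 0.28 ± 0.09, and H2ac10/H3c8 at −0.20 ± 0.08 and 0.33 ± 0.06. H2bc1/H2ac1 was below 0 for both, at −0.55 ± 0.18 and −0.23 ± 0.17. H1f5, with 1 row, was above 0 for Brg1KD at 0.45 ± 0.63, an error larger than the value. The errors treat overlapping rows as separate and are too small.

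**Figure D4:**
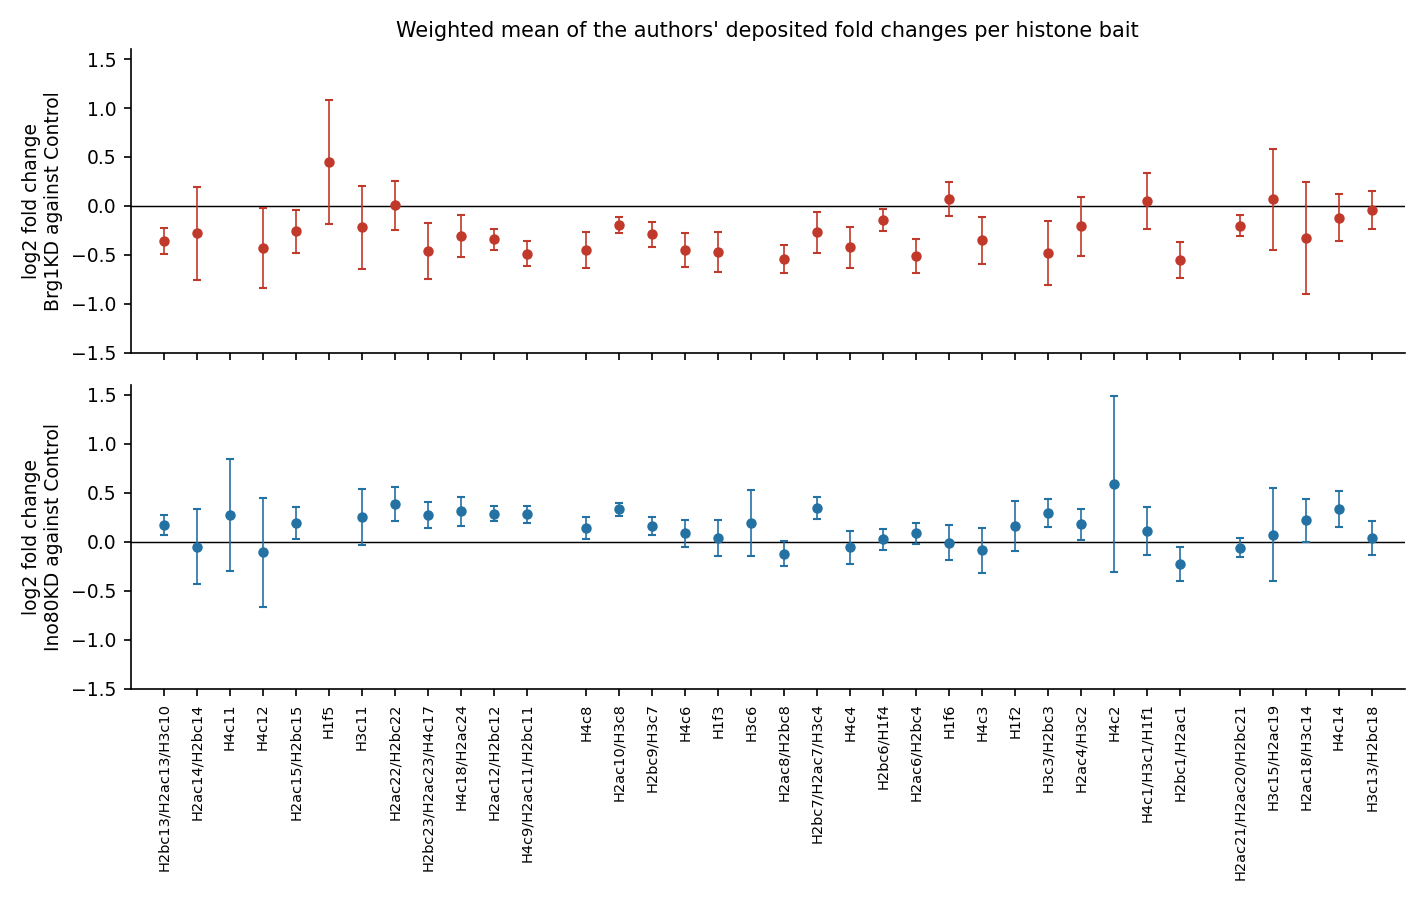
Weighted mean of the authors' deposited log2 fold changes (vertical axes) at each histone bait in genome order within each cluster, for Brg1KD (upper) and Ino80KD (lower), with bars for the SE of the weighted mean. In the upper panel 27 of 32 baits lie below 0 and in the lower panel 27 of 35 lie above 0; both share the Control libraries.

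The chromosome 3 cluster had few loops and none between its own genes. Its loops numbered 7 and 6 in Control, 9 and 3 in Brg1KD, and 12 and 7 in Ino80KD, or 0.457 and 0.417, 0.734 and 0.231, and 0.818 and 0.496 per 1000 loops. The Brg1KD libraries lay on either side of Control (ratio 1.11, exact permutation p = 1). Both Ino80KD libraries lay above both Control libraries (ratio 1.50, exact permutation p = 0.33), but among loops with an interaction score of at least 7 the ratio was 0.398. Of these loops, 22 were at H2ac21/H2ac20/H2bc21, with 4 in each Control library, 5 and 2 in Brg1KD, and 4 and 3 in Ino80KD, which overlapped. The rows of the whole chromosome 3 cluster in the authors' deposited tables had medians of −0.15 over 12 rows for Brg1KD and 0.07 over 17 rows for Ino80KD.

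Loops between chromosomes with a histone bait numbered 3 and 7 in Control, 11 and 5 in Brg1KD, and 2 and 4 in Ino80KD. The lists held 2720 and 2942 loops between chromosomes in Control, 3809 and 2600 in Brg1KD, and 2812 and 2405 in Ino80KD. Histone baits were 36 of 19083 baits, so these counts do not set them apart as rare. Both depletions overlapped Control, and the Ino80KD libraries lay below both Brg1KD libraries per 1000 loops of both kinds (ratio 0.354, exact permutation p = 0.33). The highest count was in Brg1KD replicate 1, which also listed the most interchromosomal loops of all, 3809 against 2405 to 2942 in the other libraries. With histone baits at both ends, chromosome 3 met chromosome 13 in 1 loop in each of both Control libraries, Brg1KD replicate 2 and Ino80KD replicate 1, and in none in the other libraries. These counts are too small to compare. The chromosome 3 baits also met a site at the H2A pseudogene H2af-ps2 on chromosome 13, outside the clusters, in every library. The handling of reads that match both the pseudogene and a baited gene is among the steps that the sources used here do not give.

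At genes that act on the histone clusters, the ratios of the groups moved with 1 gene, Cdk2. Of 11 such genes, 8 had a bait, with 15 baits in all. Their loops numbered 18 and 15 in Control, 18 and 20 in Brg1KD, and 16 and 22 in Ino80KD. Over all baits the mean was 0.659 to 0.838 loops per bait in a library. Per 1000 loops the Brg1KD libraries lay above Control (ratio 1.36, exact permutation p = 0.33), while Ino80KD overlapped it (ratio 1.19, p = 0.67). Cdk2, whose kinase phosphorylates NPAT, had 2 and 1 loops in Control, 5 and 6 in Brg1KD, and 4 and 9 in Ino80KD. Without Cdk2, left out after its values were seen, the list had 16 and 14 loops in Control, 13 and 14 in Brg1KD, and 12 and 13 in Ino80KD. Per 1000 loops the ratios to Control were then 1.06 for Brg1KD and 0.862 for Ino80KD (exact permutation p = 0.33 for each). Pou2f1 had 5 and 2 loops in Control, 1 and 0 in Brg1KD, and 3 and 2 in Ino80KD. Zfp473, which encodes a protein of the 3′-end processing complex, had the most, with 8 and 10 loops in Control, 7 and 9 in Brg1KD, and 5 and 6 in Ino80KD. Npat had 3 loops in all, 1 in Control replicate 2 and 2 in Brg1KD replicate 2. Rows of these genes in the authors' deposited tables had medians of 0.02 over 37 rows for Brg1KD and 0.07 over 40 rows for Ino80KD. Histone genes that the rule did not take, such as the variants H1f0, H2az1 and H3f3b, had 4 and 3 loops in Control, 3 and 2 in Brg1KD, and 5 and 7 in Ino80KD over 10 genes, too few to compare bait by bait. At H3f3b there were 2 and 1, 2 and 1, and 2 and 1.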

How the data were processed

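Chromatin crosslinked with DSG and formaldehyde was cut by micrococcal nuclease, joined through a bridge adapter and enriched for promoters, per the labels' protocols. The submitters' processing notes name the build mm10 and the tool bedtools, and the sources used here do not give the loop caller. Loops deposited by the authors come as 1 list for each library, with scores from 5 up, and as lists of positions per group, which lack the loops of 1 bait (chromosome 2, 98661117 to 98662976) left out here. The lists give no contact counts, so the depth per library is unknown and no count model was used. The authors' deposited tables hold, per the file headers, a mean signal, the log2 fold change and its error, their quotient as a score, and p-values before and after adjustment.

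Loops with a histone bait at either end were counted per 1000 intrachromosomal loops of the library. Runs of genes with gaps under 500 kb made a cluster. Values per library were set against each other with exact two-sided permutation tests of 2 against 2, in Python 3.11.15 with pandas 2.3.3 and SciPy 1.17.1. The counting was tested by dropping histone loops at random from the Control replicate 1 list, which checks the arithmetic only. Ends are unequal in size, since bins of 20 kb are cut at baits. Named in full are the 10 baits with most loops, the 5 rows with the smallest p in each table, pairs across subclusters listed in at least 4 libraries and the busiest chromosome 3 bait; other baits are named as examples chosen after their values were seen. The members and lists were chosen with earlier results of these data known. Replicate numbers mark shared batches in full only between Brg1KD and Ino80KD, per the labels. The closing section gives the alternatives.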

Additional observations from a re-analysis of the deposited data

How the results depend on the processing

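Settings tried were leaving out each library, the replicate number as a block, single batches, other bait windows, score minimums and denominators, merged ends, longer spans and leaving out clusters. Leaving out Cdk2, counting all loops from a histone bait into the other subcluster, the values per 100 loops of the same span, the values for single clusters and leaving out the bait with most loops were added after seeing the data. Of 335 recomputed values, 324 kept their direction and 11 reversed. The other bait windows returned the reported loop rates unchanged, as did leaving out the busiest bait for loops at the proximal subcluster. Such values are no separate trial, though they count among the 324 and among the 131 given below. With 2 libraries a group no test could pass 0.05, so none of this speaks for the stability of a call. Where groups did not overlap in the value reported, they overlapped in 11 of 131 values recomputed with all 6 libraries. Of these, 10 came with a score minimum of 7 or 10, all in comparisons with Control. For the histone loop rate they were Brg1KD at 7 (ratio 0.614) and Ino80KD at 7 and 10 (1.51 at each). The other one was Ino80KD against Brg1KD per 100 loops of the same span, at 1.09 with merged ends. The histone loop rate kept its direction in each setting run on it. Leaving out 1 library gave ratios of 0.514 to 0.743 for Brg1KD against Control, 1.17 to 1.69 for Ino80KD against Control and 2.03 to 2.59 for Ino80KD against Brg1KD. Leaving out 1 library gave 0.423 to 0.693, 1.06 to 1.75 and 2.16 to 3.02 for all loops into the other subcluster. For those of them with histone baits at both ends it gave 0.293 to 0.923, 1.02 to 2.69 and 2.05 to 5.04. In a fit with the replicate block, the histone loop rate had mean paired ratios of 0.614, 1.40 and 2.28 (exact sign permutation p = 0.5, the smallest possible with 2 pairs), which changed no direction. Within batch 1, the Ino80KD to Control ratio reversed to 0.842 for loops between the subclusters with histone baits at both ends. It also reversed to 0.982 for all loops at the proximal subcluster and 0.923 per 100 loops of the same span. Per 100 loops of the same span, the main ratios to Control were 0.817 for Brg1KD and 1.11 for Ino80KD. Leaving out 1 library gave 0.687 to 1.01 for Brg1KD, reversed without Control replicate 1, and 0.936 to 1.37 for Ino80KD, reversed without Control replicate 2. The chromosome 3 cluster, with 3 to 12 loops a library, had no stable direction. Its Brg1KD to Control ratio of 1.11 became 0.530 without Brg1KD replicate 1 and 1.68 without Brg1KD replicate 2, 0.945 with the replicate block and 0.790 with a score of at least 7. At that score its Ino80KD ratios were 0.398 to Control and 0.503 to Brg1KD, and the latter was 0.894 without Brg1KD replicate 2 and 2.84 without Brg1KD replicate 1. With a score of at least 10 no Brg1KD loop between the subclusters with histone baits at both ends was left. The medians of the authors' deposited log2 fold changes ranged from −0.34 to −0.30 for Brg1KD and from 0.12 to 0.24 for Ino80KD. The causes of these differences were not tested.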
